A study of Homo sapiens with 12 samples.

Results

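LNCaP cells are human prostate adenocarcinoma cells of luminal epithelial character that respond to androgen. Neuroendocrine markers and their repressor REST were followed in LNCaP cells carrying a short hairpin RNA (shRNA) against TMEFF2 (sh_TMEFF2) or a scrambled sequence (sh_scramble), each with and without dihydrotestosterone (DHT). The 8 genes ENO2, CHGA, SCG2, SYP, TUBB3, NTS, REST and SRRM4 were taken by symbol from the 34643 rows of the deposited gene table, because androgen removal is known to raise genes of this kind in LNCaP. All 8 rows were found, and 5 of the 8 (ENO2, SYP, TUBB3, NTS and REST) had enough reads to be tested.

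The hairpins were expressed from the U6 promoter of the lentiviral vector pLKO.1-puro, and cells of both lines were selected with puromycin. The series gives 17 days of shRNA before harvest, whereas the study's methods give a shorter period of growth. After 24 h in medium with charcoal-stripped serum, which removes steroids, cells received 10 nM DHT (+DHT) or ethanol vehicle (−DHT) for 24 h. The control cells without DHT therefore shared the hairpin vector, the selection and the hormone-depleted serum with all other cells. Each of the 2 lines was thus sequenced −DHT and +DHT, which makes 4 groups with 3 libraries each. The 3 libraries of a group were separate treatments and RNA extractions from 2 transductions, and the labels do not say which library came from which, so p-values measure the spread between these treatments and not between 3 independently made lines.

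Library totals were 19450866 to 22612046 estimated counts. Levels are CPM, counts scaled to a common library total, after TMM scaling, which corrects for differences in library composition, and they can be compared between libraries for 1 gene but not between genes, since they are not per length. A gene was called when it differed by at least 1.5-fold and its p, from the quasi-likelihood test of edgeR and adjusted by Benjamini-Hochberg over 15419 genes, was at most 0.05. TMEFF2 itself was 85.0 ± 16.0 CPM in sh_scramble −DHT and 63.2 ± 21.7 in sh_TMEFF2 −DHT (SD, n = 3). With DHT it was 153 ± 31.4 CPM in sh_scramble and 116 ± 26.03 in sh_TMEFF2. The libraries of the lines overlapped at both DHT levels, and the difference did not pass the test (log2 fold change −0.43, edgeR adjusted p = 0.503, and −0.41, adjusted p = 0.304). Comparisons of the lines below are thus between cells as labelled, with a TMEFF2 difference that was not past the threshold in these libraries. By Western blot, the study reports TMEFF2 protein appreciably lowered in LNCaP cells by some of its hairpins. It also shows TMEFF2 mRNA of such cells, and neither measurement was analysed here.

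The 8 luminal prostate markers were all tested, and their summed level was 6507 to 6721 CPM in sh_scramble −DHT, 12070 to 13571 in sh_scramble +DHT, 4356 to 4935 in sh_TMEFF2 −DHT and 5052 to 6315 in sh_TMEFF2 +DHT. Of 3 basal markers 1 was tested, KRT5 was at 0 in all 12 libraries, and the sum was 0.0401 to 0.136 CPM in sh_scramble −DHT, 0.861 to 1.74 in sh_scramble +DHT, 0 to 0.27 in sh_TMEFF2 −DHT and 0.0674 to 0.476 in sh_TMEFF2 +DHT. Of 3 leukocyte markers 2 were tested, CD3E did not exceed 1 count, and the sum was 7.83 to 9.68, 9.35 to 12.05, 11.2 to 12.6 and 11.03 to 12.1 CPM in the same order of groups. For stroma and endothelium 3 of 5 markers were tested, with sums of 34.5 to 44.7, 26.4 to 26.8, 44.2 to 51.7 and 34.7 to 45.6 CPM. The part of these markers in the results that follow was not tested. All 12 libraries were of the cultured LNCaP line. In such bulk RNA, fewer cells with a marker and less of its RNA per cell cannot be told apart.

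Neuroendocrine cells store peptides in dense-core vesicles and share much of their gene expression with neurons. REST is a zinc finger repressor that silences neuronal genes in other cells by binding a long DNA element, RE1, and recruiting corepressors and histone-modifying enzymes. SRRM4 is a neural splicing factor that can include a short exon in REST mRNA, which truncates the repressor. Prostate adenocarcinoma cells deprived of androgen can take up markers of this program, and ENO2 (neuron-specific enolase), CHGA (chromogranin A), SCG2 (secretogranin II), SYP (synaptophysin), TUBB3 (neuronal class III beta-tubulin) and NTS (neurotensin) are in common use as such markers.

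RE1 elements around the gene starts are shown because they are the DNA through which REST acts. The letters CAGCACC, any 2 bases and GGACAG were searched on both strands within 5000 bases of each gene's main transcript start (GENCODE v44, GRCh38). All letters were present in CHGA, SYP and TUBB3, each in intron 1 and on the gene's own strand, and SRRM4 matched with 1 mismatch in the untranslated part of exon 1. In capitals are the bases that match, with 5 flanking bases at either end:
CHGA, chr14:92923525-92923539, plus strand: gttttCAGCACCgcGGACAGcgcct
SYP, chrX:49200126-49200140, minus strand: cgctcCAGCACCgtGGACAGagccc
TUBB3, chr16:89926506-89926520, plus strand: gaggtCAGCACCaaGGACAGcgccc
SRRM4, chr12:118981835-118981849, plus strand: cgtttCAGCACtttGGACAGcgccc
The coordinates are those of the element without its flanks. The elements lay 382, 60, 3171 and 301 bases downstream of the starts of CHGA, SYP, TUBB3 and SRRM4. Among 20015 windows of the same length around protein-coding genes, 165 (0.824%) held all letters and 1153 (5.76%) held them with at most 1 mismatch. ENO2, SCG2, NTS and REST had no match in this window. An androgen response element, written AGAACA, any 3 bases and TGTTCT, matched in 0 of the 8 windows with up to 1 mismatch, against 3.85% of all windows (0.135% with all letters). These matches describe letters only, and binding was not measured.

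**Figure D1:**
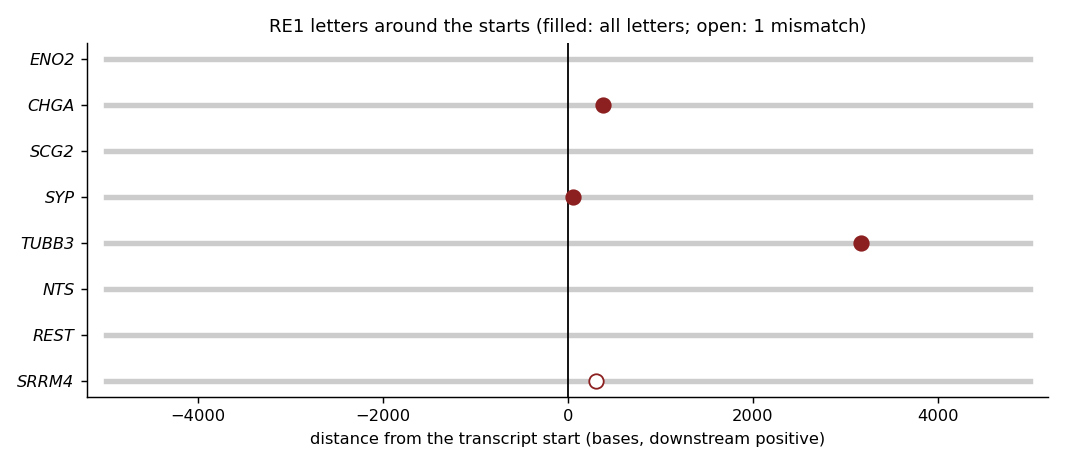
Position of RE1 letters on the x axis, in bases from the transcript start, for each of the 8 genes on the y axis; grey bars are the windows searched, filled points match all letters and the open point has 1 mismatch. The matches of CHGA, SYP, TUBB3 and SRRM4 all lie downstream of the start, at 60 to 3171 bases.

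ENO2 and NTS were the markers that fell with DHT in sh_scramble, and their promoters are given for that reason (RefSeq, GRCh38.p14, the 250 bases before the start, where 7 of the 8 genes had an entry).
ENO2, chr12:6914330-6914579, plus strand: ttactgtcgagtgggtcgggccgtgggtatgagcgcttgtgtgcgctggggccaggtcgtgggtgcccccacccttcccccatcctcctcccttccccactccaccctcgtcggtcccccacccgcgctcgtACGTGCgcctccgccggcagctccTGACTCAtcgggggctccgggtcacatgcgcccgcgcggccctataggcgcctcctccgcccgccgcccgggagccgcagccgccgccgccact
NTS, chr12:85874045-85874294, plus strand: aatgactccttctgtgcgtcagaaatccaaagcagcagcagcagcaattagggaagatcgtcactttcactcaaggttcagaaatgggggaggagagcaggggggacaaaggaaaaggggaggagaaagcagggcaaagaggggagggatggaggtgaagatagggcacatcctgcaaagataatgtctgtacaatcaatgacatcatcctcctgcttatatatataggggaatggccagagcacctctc
Capitals in ENO2 mark ACGTGC, the core of a hypoxia response element (present on either strand in 5.83% of 35116 promoters), and TGACTCA, an AP-1 site (4.2%, with TGAGTCA on the other strand). The ENO2 sequence was 74.0% G and C with 30 CpG, and that of NTS was 49.2% with 2 CpG, against medians of 58.0% and 11 CpG over all promoters. In NTS none of the letters searched was found, which were these and TGACGTCA (1.65% of promoters), the hormone receptor hexamer AGAACA (12.4%) and the RE1 parts CAGCACC (6.16%) and GGACAG (17.2%), on both strands.

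DHT lowered ENO2 and NTS in sh_scramble cells, and none of the 5 tested genes was called in sh_TMEFF2 cells. In sh_scramble 2 of 5 genes were called lower and 0 higher, where 6.45% of all genes tested were called lower and 5.45% higher. In sh_TMEFF2 the counts were 0 lower and 0 higher of 5, where 1.6% and 3.28% of all genes were called. There 1 gene had an unadjusted p under 0.05, 1 was called by DESeq2, and 2 were called lower with the replicate number as a block. The responses of the lines were then compared with each other, and for 0 of the 5 genes did they differ (adjusted p over all genes, 4.94% of genes called; 0 at an unadjusted p under 0.05, and 0 by DESeq2). A difference between the lines was thus not called for these genes, which does not show that they responded alike, and for ENO2 it was called when 1 library was left out, as given below.

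ENO2 encodes the neuronal form of the glycolytic enzyme enolase (chr12:6913745-6923698, plus strand, 12 exons, overlapping LRRC23 on the same strand). It was 70.2, 76.4 and 106 CPM in the libraries of sh_scramble −DHT and 31.4, 36.3 and 64.8 CPM in those of sh_scramble +DHT. Every +DHT library lay below every −DHT library. The fold change was 1.91-fold lower (log2 −0.93, SE 0.23, edgeR adjusted p = 0.0089). In sh_TMEFF2 ENO2 was 50.9, 53.4 and 55.3 CPM without DHT and 41.9, 35.0 and 45.1 CPM with it. These groups did not overlap either, but the difference did not pass (log2 −0.39, 95% interval −0.88 to 0.10, edgeR adjusted p = 0.302). Without DHT, the highest library of sh_TMEFF2 was below the lowest of sh_scramble (log2 −0.66, SE 0.22, edgeR adjusted p = 0.203), a difference that did not pass. With DHT the lines overlapped (log2 −0.12, 95% interval −0.62 to 0.37). By mean the order was sh_scramble −DHT (84.3 ± 19.2 CPM), sh_TMEFF2 −DHT (53.2 ± 2.21), sh_scramble +DHT (44.2 ± 18.0) and sh_TMEFF2 +DHT (40.7 ± 5.15; SD, n = 3), and of the neighbours in that order the last 3 overlapped in turn. The DHT responses of the lines differed by 0.54 on the log2 scale (95% interval −0.15 to 1.24, edgeR adjusted p = 0.431). Without sh_scramble +DHT replicate 3, the library at 64.8 CPM, that difference was 0.92 with an adjusted p of 0.037, and the difference between the lines with DHT turned from −0.12 to 0.26 without passing the test.

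NTS encodes the precursor of neurotensin, a secreted peptide that acts on G protein-coupled receptors and on the sorting receptor SORT1 (chr12:85874295-85882992, plus strand, 4 exons). It was 26.5, 28.9 and 10.9 CPM in sh_scramble −DHT and 6.48, 5.99 and 2.19 CPM in sh_scramble +DHT. All 3 libraries with DHT were below all 3 without it, 4.52-fold on the fitted scale (log2 −2.18, SE 0.57, edgeR adjusted p = 0.013). The call held under 20 of 21 alternatives. It was lost without sh_scramble +DHT replicate 3, where the log2 fold change was −1.83 and the edgeR adjusted p 0.0508. In sh_TMEFF2 NTS was 49.2, 29.4 and 18.3 CPM without DHT and 29.0, 12.5 and 7.16 CPM with it. There the groups overlapped and the difference did not pass (log2 −0.99, 95% interval −2.12 to 0.13, edgeR adjusted p = 0.242). With the replicate number as a block the fall passed (log2 −1.08, edgeR adjusted p = 0.0060), but the labels do not say what these numbers share. With DHT every library of sh_TMEFF2 was above every library of sh_scramble, by a log2 difference of 1.73 (SE 0.57) that missed the threshold (edgeR adjusted p = 0.058) and passed it with DESeq2 (adjusted p = 0.043) and under 7 other of the 21 alternative settings. Among the edgeR settings the adjusted p ran from 0.00070, with the replicate number as a block (log2 1.66), to 0.27. Without DHT the lines overlapped (log2 0.54, 95% interval −0.57 to 1.65). By mean the order was sh_TMEFF2 −DHT (32.3 ± 15.6 CPM), sh_scramble −DHT (22.1 ± 9.78), sh_TMEFF2 +DHT (16.2 ± 11.4) and sh_scramble +DHT (4.89 ± 2.35; SD, n = 3), and only the last group did not overlap with the one before it. The responses of the lines to DHT differed by 1.18 on the log2 scale (95% interval −0.47 to 2.84, edgeR adjusted p = 0.482).

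Of the neurotensin receptors, NTSR1 and SORT1 were tested and neither was called in any of the 5 comparisons, and NTSR2 did not exceed 3.95 counts. With DHT the log2 fold change of NTSR1 was −0.71 (95% interval −1.504 to 0.08) in sh_scramble and −0.69 (−1.46 to 0.09) in sh_TMEFF2. SORT1 changed by −0.13 (−0.28 to 0.03) and −0.10 (−0.26 to 0.05). Where NTS itself fell with DHT, in sh_scramble, neither receptor passed the test.

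**Figure D2:**
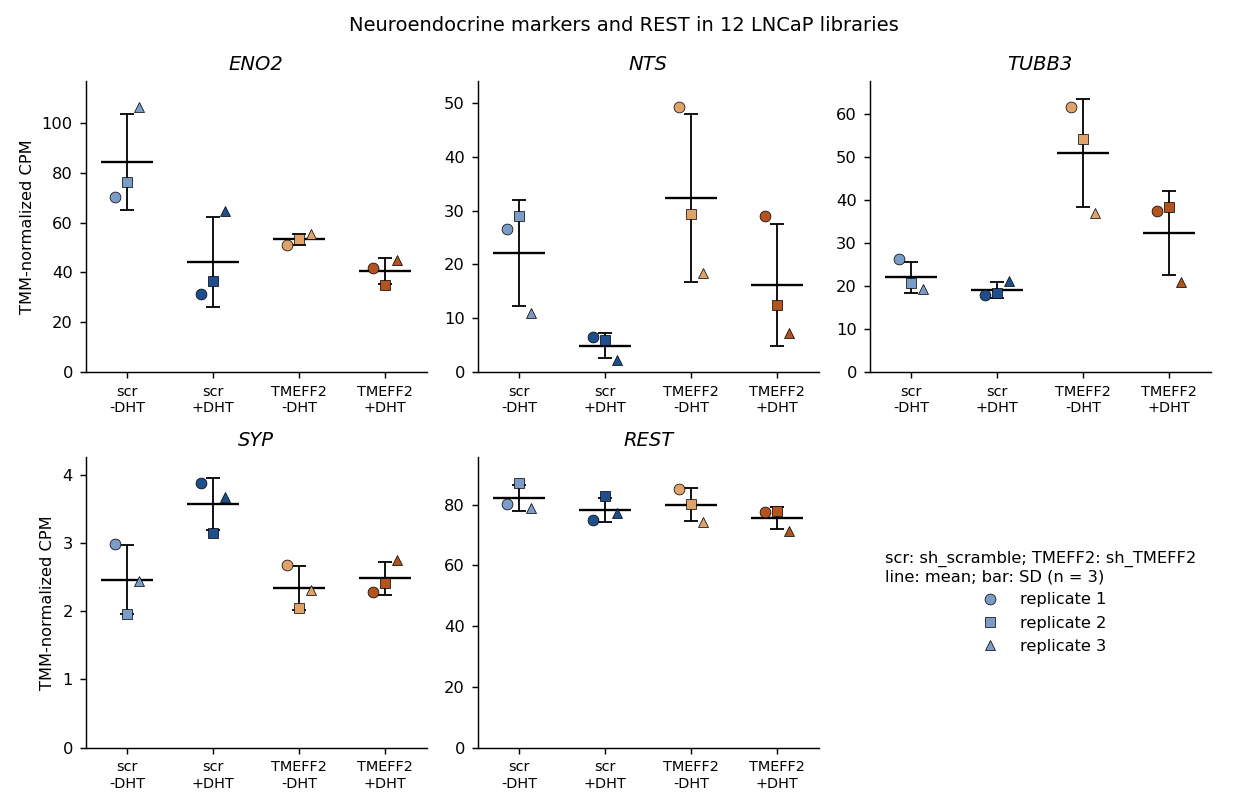
Level of the 5 tested genes on the y axis, in TMM-normalized CPM from 0, in the 4 groups on the x axis; points are libraries with the replicate number as the symbol, and lines and bars are the mean and SD (n = 3). ENO2 and NTS lie lower with DHT in sh_scramble, TUBB3 lies higher in sh_TMEFF2 on average at both DHT levels, and REST stays between 71.3 and 87.1 CPM.

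TUBB3 was the gene called between the lines, and it was higher in sh_TMEFF2 than in sh_scramble at both DHT levels. Without DHT 1 of 5 genes was called higher and 0 lower, where 0.298% of all genes were called higher and 0.272% lower. With DHT it was again 1 higher and 0 lower, with 3.03% and 3.74% of all genes called. TUBB3 encodes a beta-tubulin of neurons that carcinoma cells can also express (chr16:89921392-89938761, plus strand, 4 exons). A protein-coding gene model on the same strand overlaps it, so that reads shared with it are uncertain, and a noncoding gene overlaps on the opposite strand.

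TUBB3 was 26.2, 20.8 and 19.3 CPM in sh_scramble −DHT and 61.6, 54.3 and 37.1 CPM in sh_TMEFF2 −DHT. The lines did not overlap, and sh_TMEFF2 was 2.30-fold higher (log2 1.20, SE 0.23, edgeR adjusted p = 0.028). With DHT it was 17.9, 18.3 and 21.3 CPM in sh_scramble and 37.6, 38.4 and 21.0 CPM in sh_TMEFF2. Here the third library of sh_TMEFF2 lay just below the highest of sh_scramble, and the fitted difference was 1.69-fold (log2 0.75, SE 0.23, edgeR adjusted p = 0.040). Both calls depended on single libraries although the direction held in each fit. Without DHT the call was lost on leaving out any 1 of sh_scramble −DHT replicates 1, 2 and 3 and sh_TMEFF2 −DHT replicates 1 and 2 (log2 1.35, 1.16, 1.12, 1.05 and 1.16, adjusted p = 0.060 to 0.12). With DHT it was lost without sh_scramble −DHT replicate 2, sh_scramble +DHT replicates 1, 2 and 3, sh_TMEFF2 −DHT replicate 2 or sh_TMEFF2 +DHT replicates 1 and 2 (log2 0.75, 0.72, 0.73, 0.84, 0.75, 0.63 and 0.63, adjusted p = 0.051 to 0.134). The DHT response of TUBB3 was −0.21 on the log2 scale in sh_scramble (95% interval −0.71 to 0.29) and −0.66 in sh_TMEFF2 (−1.14 to −0.18, edgeR adjusted p = 0.071). In sh_TMEFF2 it passed under 4 of 21 alternatives, among them DESeq2 (adjusted p = 0.021) and the replicate number as a block (edgeR adjusted p = 0.028). By mean the order was sh_TMEFF2 −DHT (51.0 ± 12.6 CPM), sh_TMEFF2 +DHT (32.3 ± 9.78), sh_scramble −DHT (22.1 ± 3.63) and sh_scramble +DHT (19.2 ± 1.82; SD, n = 3), in which each group overlapped with the next. The responses differed by −0.45 (95% interval −1.14 to 0.24, edgeR adjusted p = 0.535).

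**Figure D3:**
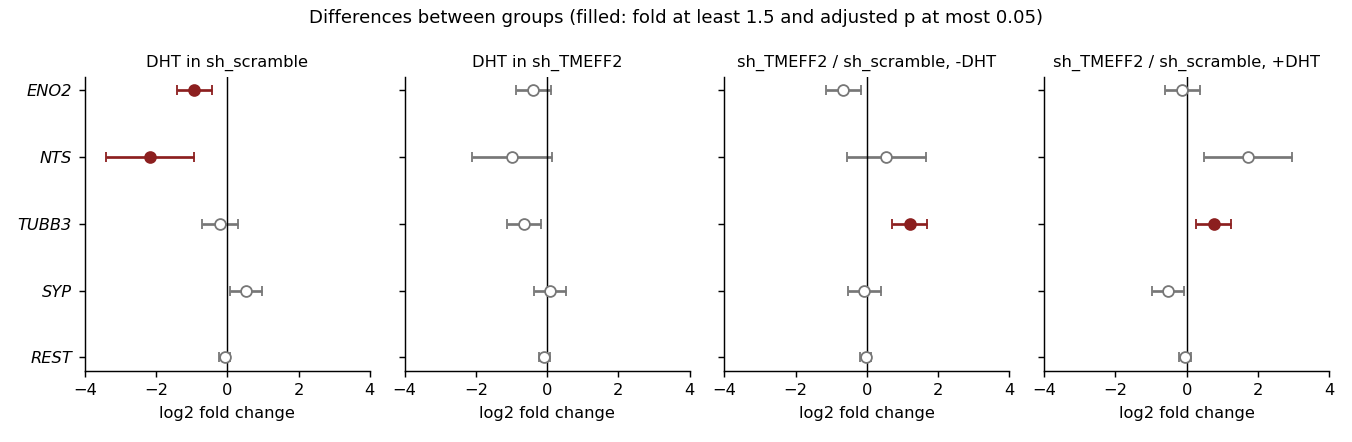
Log2 fold changes of the 5 tested genes on the x axis for the 4 comparisons of groups, with genes on the y axis, points for the estimates of edgeR and bars for 95% intervals; filled points were called. Filled are ENO2 and NTS for DHT in sh_scramble, and TUBB3 for both comparisons of the lines.

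SYP encodes synaptophysin, a membrane protein of synaptic vesicles (chrX:49187815-49200218, minus strand, 7 exons, with SYP-AS1 on the opposite strand). Its level was low, at 2.98, 1.97 and 2.45 CPM in sh_scramble −DHT and 3.88, 3.14 and 3.68 CPM in sh_scramble +DHT. Unlike ENO2 and NTS, SYP lay higher with DHT in sh_scramble, without overlap of the groups, but by a difference that did not pass the test (log2 0.53, SE 0.21, edgeR adjusted p = 0.076). In sh_TMEFF2 it was 2.68, 2.04 and 2.31 CPM without DHT and 2.28, 2.42 and 2.75 CPM with it, and the groups overlapped (log2 0.08, 95% interval −0.37 to 0.54). Between the lines the log2 difference was −0.07 without DHT (95% interval −0.53 to 0.39) and −0.52 with DHT (−0.97 to −0.07, edgeR adjusted p = 0.109). By mean sh_scramble +DHT (3.57 ± 0.379 CPM) stood above sh_TMEFF2 +DHT (2.48 ± 0.238), sh_scramble −DHT (2.46 ± 0.506) and sh_TMEFF2 −DHT (2.34 ± 0.323; SD, n = 3), and these last 3 overlapped.

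CHGA and SCG2 encode granins, acidic proteins of dense-core vesicles, and both were too low to be tested. CHGA (chr14:92923150-92935285, plus strand, 8 exons) was at 0 in 7 of 12 libraries and reached 2.71 counts in the highest. A count of 0 allows up to 3 counts, which is 0.133 to 0.154 CPM in these libraries and covers counting error only, so CHGA mRNA was not detectable above that limit in any group. SCG2 (chr2:223596940-223602361, minus strand, 2 exons) had 10.7, 2.95 and 1.51 counts in sh_scramble −DHT, 2.98, 0.753 and 2.26 in sh_scramble +DHT, 10.6, 5.30 and 2.22 in sh_TMEFF2 −DHT and 4.47, 10.1 and 6.88 in sh_TMEFF2 +DHT. Only 1 or 2 libraries of a group rose above 5 counts outside sh_scramble +DHT, where none did, and no difference can be read at this depth.

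REST (chr4:56907876-56966808, plus strand, 4 exons in its main transcript, with NOA1 and a noncoding gene on the opposite strand) was well expressed, at 71.3 to 87.1 CPM. It was 80.4, 87.1 and 79.0 CPM in sh_scramble −DHT, 74.8, 82.7 and 77.3 in sh_scramble +DHT, 85.2, 80.3 and 74.4 in sh_TMEFF2 −DHT and 77.7, 77.9 and 71.3 in sh_TMEFF2 +DHT. The groups overlapped in each comparison of DHT with vehicle and of the lines, while sh_TMEFF2 +DHT lay below sh_scramble −DHT. With DHT REST changed by a log2 value of −0.07 in sh_scramble (95% interval −0.22 to 0.09) and −0.08 in sh_TMEFF2 (−0.24 to 0.08). Between the lines it was −0.04 without DHT (−0.19 to 0.12) and −0.05 with it (−0.21 to 0.11). None of these passed the test (edgeR adjusted p = 0.515, 0.526, 0.884 and 0.707), and each interval lay within 0.24 of 0 on the log2 scale, which leaves out a change of 1.5-fold.

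SRRM4 (chr12:118981541-119163051, plus strand, 13 exons) had between 0 and 5.0003 counts in a library and was not tested. Its mean was 0.117 CPM in sh_scramble −DHT, 0.173 in sh_scramble +DHT, 0.138 in sh_TMEFF2 −DHT and 0.096 in sh_TMEFF2 +DHT. These levels are close to that of 3 counts, and no order of the groups can be read from them. The table holds counts per gene, so the REST splice form that SRRM4 promotes was not measured.

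The partners of REST and SRRM4 were followed in a list of 31 genes, of which 27 were tested. With DHT in sh_scramble 1 of 27 was called higher and 3 lower, where 5.45% and 6.45% of all genes were called, at a median log2 fold change of −0.16 (−0.01 over all genes). HMG20B, a subunit of the REST corepressor complex with LSD1, was 120, 121 and 124 CPM without DHT and 187, 175 and 186 with it. It was called at 1.502-fold (log2 0.59, SE 0.088, edgeR adjusted p = 0.00035), just past the fold limit, and fell short of that limit under 9 of 21 alternatives. RCOR2, a corepressor of the same complex, was 4.34, 2.77 and 2.96 CPM without DHT and 2.38, 0.952 and 1.55 with it, without overlap (log2 −1.06, SE 0.33, edgeR adjusted p = 0.030). Its call was lost under 5 of 20 alternatives, with 6 libraries, with the second column (log2 −0.63, adjusted p = 0.376) and without sh_scramble −DHT replicate 1 or sh_scramble +DHT replicates 2 or 3 (−0.83, −0.78 and −1.03). Of the neural splicing regulators, NOVA1 fell from 4.66, 5.36 and 4.42 to 2.07, 1.98 and 1.58 CPM (log2 −1.34, SE 0.25, edgeR adjusted p = 0.0017). The NOVA1 call was lost under 1 of 20 alternatives, with the second column (log2 −1.17, edgeR adjusted p = 0.0503). PTBP2, the neural relative of PTBP1, fell from 33.4, 37.1 and 37.3 to 27.4, 21.6 and 21.3 CPM (log2 −0.62, SE 0.12, edgeR adjusted p = 0.0022), and missed the fold limit without sh_scramble +DHT replicates 2 or 3 (−0.56 and −0.55) and with the second column (−0.53). NOVA1 is a neuronal RNA-binding protein that, like PTBP2, controls exon choice.

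In the other 4 comparisons 0 of the 27 partners were called by edgeR. At an unadjusted p under 0.05 there were 9 for DHT in sh_TMEFF2, 5 and 11 for the lines without and with DHT, and 4 for the difference of the responses, and DESeq2 called 0, 0, 1 and 2. The median log2 fold change in these comparisons was −0.07, 0.03, 0.11 and 0.11, against −0.02, −0.0037, 0.0041 and 0.0062 over all genes. All 19 REST corepressors and enzymes in the list were tested, as were both genes that control REST stability, BTRC and USP7, neither of which was called. BTRC, the ubiquitin ligase subunit that marks REST for breakdown, changed with DHT in sh_scramble by 0.24 on the log2 scale (SE 0.18), and USP7, which removes ubiquitin from it, by 0.20 (SE 0.053, adjusted p = 0.013), under the fold limit.

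Beyond the markers above, 54 other neuroendocrine genes were listed, and most were hardly expressed. Of these 24 were tested, 7 (GRP, VIP, ADCYAP1, SST, INSM1, FOXA2 and MYCN) were at 0 in all libraries, and 17, these included, never exceeded 3 counts. Of 11 transcription factors of neuroendocrine fate in the list 2 were tested, and 0 were called in any of the 5 comparisons. ONECUT2 was well expressed and changed with DHT by 0.17 on the log2 scale in sh_scramble (SE 0.11, edgeR adjusted p = 0.30). PROX1 was low, with means of 0.66 and 0.87 CPM in sh_scramble −DHT and +DHT and 0.39 and 0.26 CPM in sh_TMEFF2 −DHT and +DHT.

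With DHT in sh_scramble 3 of the 24 were called higher and 2 lower, where 5.45% and 6.45% of all genes were called, at a median log2 fold change of 0.03 (−0.01 over all genes). DDC, the decarboxylase that makes dopamine and serotonin, fell from 176, 247 and 203 to 35.5, 38.5 and 33.9 CPM (log2 −2.53, SE 0.13, edgeR adjusted p = 7.2e-08). SYT1, the calcium sensor of vesicle release, fell from 1.82, 1.51 and 1.27 to 0.792, 0.583 and 0.638 CPM (log2 −1.16, SE 0.31, edgeR adjusted p = 0.014). MAP2, a microtubule-associated protein of dendrites, rose from 9.02, 5.61 and 8.89 to 41.7, 29.4 and 23.0 CPM (log2 2.00, SE 0.24, edgeR adjusted p = 6.4e-05). UCHL1, a neuronal ubiquitin hydrolase, and VGF, a granin-like neuropeptide precursor, were called higher as well, but both passed the filter on low counts only through libraries with DHT, so their calls are no support for a direction. They had 2.51 to 7.74 and 0.869 to 4.25 counts without DHT and 13.2 to 25.3 and 13.2 to 31.4 counts with it (log2 1.90, SE 0.52, and 2.81, SE 0.55). The SYT1 call was lost without sh_scramble −DHT replicate 1 or sh_scramble +DHT replicate 2 (log2 −1.01 and −1.06) and with the first column (−0.73), and that of UCHL1 without sh_scramble −DHT replicates 1 or 2 or sh_scramble +DHT replicate 1 (1.81, 1.65 and 1.68).

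With DHT in sh_TMEFF2 2 of the 24 were called higher and 2 lower, where 3.28% and 1.6% of all genes were called, at a median of −0.11 (−0.02 over all genes). DDC fell from 286, 317 and 348 to 195, 163 and 166 CPM (log2 −0.86, SE 0.12, edgeR adjusted p = 0.00095), and MAP2 rose from 11.9, 9.79 and 7.27 to 18.3, 19.1 and 16.2 CPM (log2 0.89, SE 0.24, edgeR adjusted p = 0.028). The MAP2 call was lost under 6 of 21 alternatives, among them leaving out sh_TMEFF2 −DHT replicates 2 or 3 or sh_TMEFF2 +DHT replicates 1, 2 or 3 (log2 0.90, 0.73, 0.87, 0.85 and 0.96, adjusted p = 0.055 to 0.085). SYT1 fell by 1.02 on the log2 scale, a call lost under 11 of 20 alternatives. PEG10, a retrotransposon-derived gene linked to neuroendocrine prostate cancer, rose by 1.38 on the log2 scale, a call lost under 7 of 20.

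Between the lines 1 of 24 was called higher and 1 lower without DHT, where 0.298% and 0.272% of all genes were called (median −0.02, −0.0037 over all genes). With DHT 1 was called higher and 3 lower, where 3.03% and 3.74% of all genes were called (median −0.18, 0.0041 over all genes). VGF, in this list, passed the filter on low counts mainly through sh_scramble +DHT, so this median is no support for a direction. SYT4, a vesicle protein of the synaptotagmin family, was 1392, 1253 and 1242 CPM in sh_scramble −DHT and 603, 681 and 707 CPM in sh_TMEFF2 −DHT. It was lower in sh_TMEFF2 without DHT (log2 −0.97, SE 0.092, edgeR adjusted p = 0.00033) and with it (1135, 882 and 999 against 579, 600 and 659 CPM, log2 −0.71, SE 0.092, edgeR adjusted p = 0.00021). DDC was higher in sh_TMEFF2, by 0.60 without DHT (SE 0.12, edgeR adjusted p = 0.032) and by 2.28 with DHT (SE 0.12, adjusted p = 5.0e-07). The call without DHT was lost under 5 of 21 alternatives, the fit of 6 libraries and leaving out sh_scramble −DHT replicates 1 or 3 or sh_TMEFF2 −DHT replicates 2 or 3 (log2 0.50, 0.59, 0.60 and 0.54, adjusted p = 0.065 to 0.11). MAP2 and PTPRN2, a phosphatase-like protein of dense-core vesicles, were lower in sh_TMEFF2 with DHT, by log2 values of −0.81 and −0.89. The MAP2 call was lost under 7 of 21 alternatives, down to −0.54 without sh_scramble +DHT replicate 1, and otherwise on leaving out sh_scramble +DHT replicate 2 (−0.84) or any sh_TMEFF2 +DHT library (−0.85 to −0.73) and with 1 column of each library. That of PTPRN2 was lost under 5 of 20, without replicates 2 or 3 of either line with DHT (−0.85 to −0.80) and with the second column (−0.65). In the difference of the DHT responses 1 of 24 was called, DDC (median −0.06, 0.01 over all genes).

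**Figure D4:**
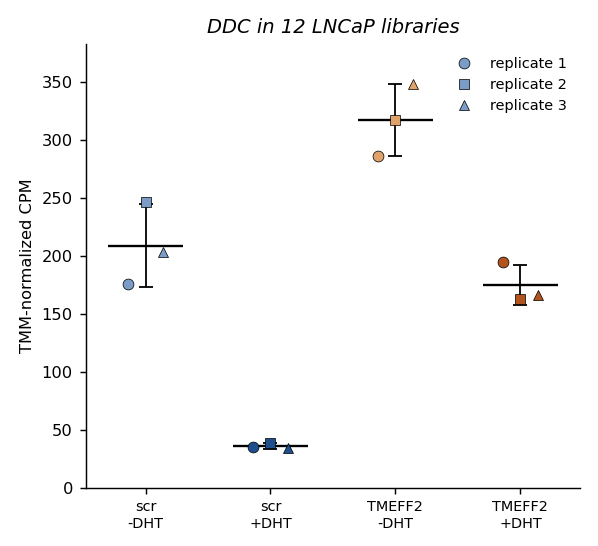
Level of DDC on the y axis, in TMM-normalized CPM from 0, in the 4 groups on the x axis (scr is sh_scramble and TMEFF2 is sh_TMEFF2); points are libraries, lines the mean and bars the SD (n = 3). The sh_scramble +DHT libraries sit between 33.9 and 38.5 CPM, below all others.

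**Figure D5:**
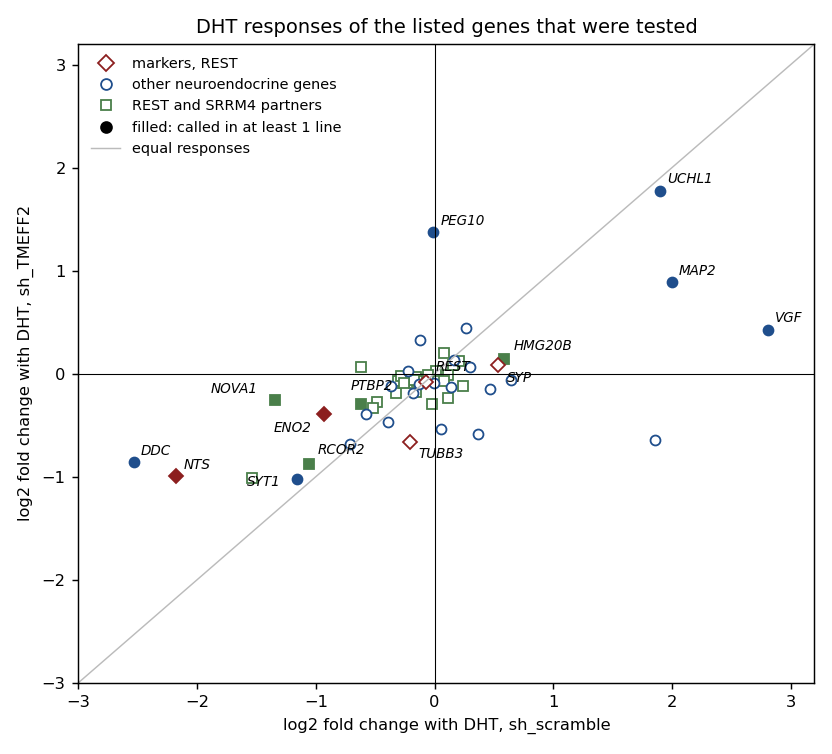
Log2 fold change with DHT in sh_scramble on the x axis and in sh_TMEFF2 on the y axis for the tested genes of the 3 lists, with filled symbols for genes called in at least 1 line and the grey line for equal responses. ENO2, NTS and DDC lie in the lower left, and MAP2, UCHL1 and VGF in the upper right.

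Genes whose levels followed the called markers most closely over the 12 libraries were found from Pearson's r of log2 CPM among the genes tested, as a description in which all points share the 4 groups. For ENO2 these were C11orf71 (r = 0.95) and the clock repressor NR1D1 (0.94). NTS was followed by RAB37 (0.96), a small GTPase, and TMSB4X (0.95), an actin-binding thymosin, and TUBB3 by REXO1 (0.98) and the transcription factor SOX4 (0.95). These genes were picked by r over the same libraries, so differences in the direction of their marker come with the choice and are no separate support. With DHT in sh_scramble the log2 fold change was −1.06 for RAB37, −1.26 for TMSB4X, −0.30 for C11orf71 and −0.51 for NR1D1. Between the lines without and with DHT it was 0.41 and 0.35 for REXO1 and 0.81 and 0.64 for SOX4. Among the members themselves r lay between −0.70 for SYP with NTS and 0.69 for TUBB3 with NTS, and ENO2 with NTS was at 0.16. ENO2 and NTS, which fell together with DHT, differed within the groups, since the library numbered 3 was the highest for ENO2 in 4 of 4 groups and the lowest for NTS in 4 of 4. The labels do not say what these numbers share.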

How the data were processed

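RNA-seq of 12 LNCaP libraries was analysed, 3 in each of 4 groups set by the labels. Reads (75 bp, paired) had been checked with FastQC, filtered and trimmed with Trimmomatic and pseudoaligned to the GRCh38 transcriptome with kallisto 0.42.3. The authors deposited the expected count of each gene symbol, an estimated count that need not be whole, made with tximport and scaled by transcript length, in 24 columns. The columns not assigned to a library numbered 0. The 2 columns of each library lay closer together (median chi-square over expectation 2.48 to 2.77) than replicates (4.07 to 5.04), and were summed and rounded.

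Counts were tested in R 4.3.3 with edgeR 4.0.16 (TMM, filterByExpr with a minimum count of 10 and total of 15, all libraries in 1 fit, quasi-likelihood test, Benjamini-Hochberg adjustment). Differences of DHT responses were called on the adjusted p alone. The statistics were tested on simulated data. The alternatives were DESeq2 1.42.0, RLE factors, library size only, no filter, a mean above 5 CPM, the 6 libraries of a comparison, a replicate block, 1 column of each library and each library left out. The study's methods used DESeq2 after a filter at 5 CPM. Intervals cover 95%, and limits from a count of 0 use 3 counts and counting error only.

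The members, the lists (54 neuroendocrine genes, 31 partners, luminal and other cell markers) and the tests were chosen with earlier results of these data known. Named are the members, TMEFF2, the markers, listed genes called in at least 1 comparison and the 2 genes with the highest r to each called member. PTBP1, ONECUT2, PROX1, BTRC, USP7, NTSR1, NTSR2, SORT1 and genes at 0 are named in addition, chosen after their values were seen. Positions are from GENCODE v44. Values of a listed gene were left out. The protein sequences and the other assays of the study were not analysed here.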

Additional observations from a re-analysis of the deposited data

Results flagged for a closer look

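The DHT response of DDC, the aromatic amino acid decarboxylase, differed between the lines by 1.68 on the log2 scale (SE 0.17, edgeR adjusted p = 0.00019), by the test of that difference. It fell by 2.53 on the log2 scale in sh_scramble and by 0.86 in sh_TMEFF2, and all 3 libraries with DHT were below all 3 without it in both lines. Over 20 alternatives the difference lay between 1.54 and 1.78 and passed in each. The luminal markers given above, which differ between the lines as well, were not tested for a part in it.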

How the results depend on the processing

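The falls of ENO2 and DDC with DHT in sh_scramble held under 21 of 21 alternatives (ENO2 log2 −1.31 to −0.73). Over the 5 tested members, 468 of 515 alternative values kept direction and side of the threshold, 15 lost a call, 14 gained one and 18 changed sign. Of 408 values for the called list genes 65 lost the call and 0 changed sign. The cause of these shifts was not tested. SYP had no value with the 5 CPM filter, which it did not pass, and a fit of 6 libraries gives no difference of responses.

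Counts of members called for DHT in sh_TMEFF2 became 1 with DESeq2 and with no filter (TUBB3). For the lines without DHT the count was 0 with the first column of each library. For the lines with DHT it was 2 with DESeq2, library size only, no filter and the 5 CPM filter (NTS added) and 0 with the first column. On leaving out 1 library the members called ranged from 1 to 2 for DHT in sh_scramble, 0 to 1 for DHT in sh_TMEFF2, 0 to 1 and 0 to 2 for the lines without and with DHT, and 0 to 1 for the difference of responses.

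The main fit tested 24 neuroendocrine genes, and alternatives tested other numbers. Those called with DHT in sh_scramble were 3 with the 5 CPM filter (9 tested) and with the second column (19 tested). In sh_TMEFF2 they were 2 with the 5 CPM filter (9 tested), 6 libraries (20) and the first column (21), and 1 with the second column (19). Between the lines they were 1 with 6 libraries (without DHT, 19 tested) and 2 with the second column (with DHT, 19 tested). For the difference of responses they were 2 with DESeq2 and with no filter (47 tested in each). Leaving out 1 library gave 4 to 7, 1 to 4, 1 to 2, 2 to 4 and 1 to 2 in the order of the comparisons. Of the partners 27 were tested in the main fit. Partners called with DHT in sh_scramble were 1 with the 5 CPM filter (23 tested) and the second column (25) and 2 with 6 libraries (27). With DHT between the lines they were 1 with DESeq2 (30 tested) and library size only (27). For the difference of responses they were 2 with DESeq2 (30 tested) and 1 with the second column (25). Leaving out 1 library gave 2 to 5, 0 to 0, 0 to 0, 0 to 1 and 0 to 2.

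Values that changed sign were all near 0 and not called. ENO2 between the lines with DHT ranged from −0.30 to 0.26 on leaving out 1 library, the last without sh_scramble +DHT replicate 3. SYP with DHT in sh_TMEFF2 was −0.038 with the first column and −0.013 to 0.19 without 1 library, and between the lines without DHT it was −0.21 to 0.093. REST between the lines was −0.087 to 0.017 without DHT and −0.072 to 0.0043 with DHT when 1 library was left out, and 0.0084 with DHT by library size only. Its difference of responses was 0.056 by library size only, 0.013 with the 5 CPM filter, 0.025 with the second column and −0.054 to 0.039 without 1 library. By library size only the share of called genes that were higher moved from 45.8% to 37.1% for DHT in sh_scramble, from 44.7% to 57.0% for the lines with DHT and from 33.4% to 48.2% for the difference of responses, and medians over all genes moved by less than 0.1.

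The replicate numbers are only shared. Deviations of libraries with the same number correlated at r = −0.0017 to 0.169 (18 pairs), against −0.14 to 0.066 for other numbers (36 pairs), and 11 of 12 libraries matched their own number best, a hint from the data and not from the design. With the replicate number as a block, members called were 2 for DHT in sh_TMEFF2 (NTS log2 −1.08, TUBB3 −0.66) and 2 for the lines with DHT (NTS 1.66). Neuroendocrine genes called for the difference of responses were 3 with the block, and partners called were 1 for DHT in sh_TMEFF2 and 2 for the difference of responses. With 3 libraries a group and few reads, CHGA, SCG2 and SRRM4 stay below what the depth can show.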
